A study of Mus musculus with 30 samples.

Results

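The suppressor of cytokine signalling (SOCS) family has 8 genes in the mouse, Cish and Socs1 to Socs7, and all 8 were found by their symbols among the 46113 genes counted in every library. Each had 1 entry in the count files, and all 8 passed the filter on low counts in each main fit, made on total exon reads. From intron reads Socs1, with 0 to 2 per library, was not tested. The 30 RNA sequencing libraries came from 100 sorted cells each, taken from bone marrow of 8 to 10 week old C57BL/6 mice. Cells with the surface phenotype Lineage- EPCR+ CD150+ CD48- are called haematopoietic stem cells (HSCs), and cells with the same markers but CD48+ are called haematopoietic progenitor cells (HPCs). The first experiment held 4 libraries of HSCs from untreated mice, 4 from mice 6 days after 5-fluorouracil (5-FU) and 6 from mice 10 days after 5-FU, a drug that kills cycling blood cells. The other experiments set 4 libraries of HSCs from untreated mice, cultured for 1 day, beside 4 of uncultured HSCs, and 4 libraries of day-10 CD48+ HPCs beside 4 of day-10 CD48- HSCs. The labels name no engineered allele, and they state neither the 5-FU dose, the culture medium nor the number of mice behind a library. P-values therefore measure the spread between libraries, which may be technical.

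SOCS proteins close a negative feedback loop. A cytokine receptor activates Janus kinases (JAKs), these phosphorylate STAT transcription factors, and the STATs switch on SOCS genes, whose products dampen the receptor that started the signal. Every member carries an SH2 domain, which binds phosphorylated tyrosines, and a SOCS box, which recruits elongins and a cullin to mark bound proteins with ubiquitin. Cish and Socs2 are textbook STAT5 targets, downstream of thrombopoietin, interleukin-3 and growth hormone, while Socs3 is a STAT3 target that limits signalling by interleukin-6 and granulocyte colony-stimulating factor, and Socs1 responds to interferons.

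The SOCS genes did not move as a block. Relative to untreated HSCs, Socs2 was higher at day 6 and Cish was lower and Socs3 higher at day 10. HSCs cultured for 1 day held more Socs2 and Socs5 and less Cish, Socs3, Socs6 and Socs7 than uncultured HSCs. The size of the Socs3 difference rested on 1 uncultured library. The Socs6 and Socs7 differences were smaller, and each was lost in 1 of 16 alternatives, the fit to intron reads. CD48+ HPCs held less Cish and less Socs2 than CD48- HSCs of the same day. Both of these Cish differences were lost when certain single libraries were left out, in 4 of 16 alternatives for culture and in 5 of 17 for CD48+ HPCs, each count including the fit to intron reads.

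Levels are given in CPM, the exon reads of a gene scaled to the same total in every library, from 5208722 to 12243208 exon reads per library. Between genes they were compared per kilobase of exon. In untreated HSCs the family ranged from 36.3 ± 9.44 CPM per kilobase for Cish (SD, n = 4) to 3.63 ± 1.00 for Socs1. Cish was thus the most abundant member per length in untreated HSCs. It was also so at day 6, with 42.9 ± 10.7, in uncultured HSCs, with 45.3 ± 11.4, and in cultured HSCs, with 28.7 ± 8.61. These places depend on the annotated exon lengths. In plain CPM at day 6 Socs2, with 221 ± 26.9, stood above Cish, with 184 ± 45.7. At day 10 that place went to Socs3, with 21.9 ± 10.4 CPM per kilobase (SD, n = 6), beside 13.4 ± 2.62 for Cish. The day-10 CD48- HSCs of the separate experiment, sorted by the same gate, had 13.3 ± 4.17 CPM per kilobase of Socs3 and 11.9 ± 2.86 of Cish (SD, n = 4 each), which lie within each other's spread. Socs5 had the highest mean in that group, with 13.5 ± 0.654 CPM per kilobase (SD, n = 4). Socs3 thus did not hold first place there. In the day-10 CD48+ HPCs Socs3 had the highest mean, 17.5 ± 5.21 CPM per kilobase (SD, n = 4).

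**Figure D1:**
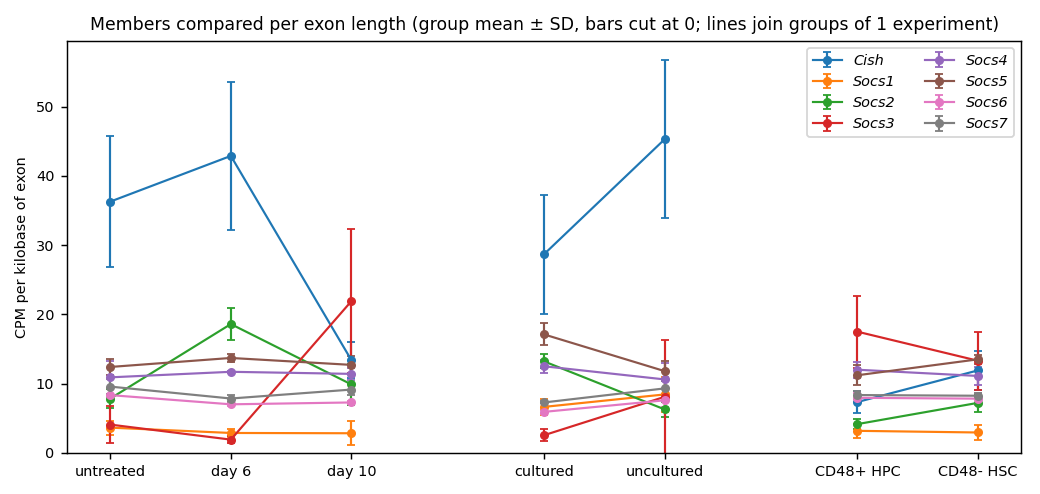
Mean level of each SOCS gene per kilobase of exon (CPM per kilobase, linear axis) in the 7 groups, with SD as error bars cut at 0, and lines joining groups of the same experiment. Cish leads at 36.3 in untreated and 42.9 in day-6 HSCs, and Socs3 leads at 21.9 in day-10 HSCs.

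The annotated start of Cish and promoter windows of Socs3 and Socs1 hold letters that STAT and interferon-response factors are known to read. They are shown because these factors are the textbook regulators of those genes. STAT dimers recognise TTCNNNGAA, which reads the same on both strands. Of 32851 mouse promoter windows in RefSeq (GRCm38.p6, 300 bases each, from 250 before to 50 after the annotated start, covering 27025 genes), 8.3% held this motif. Interferon regulatory factors recognise GAAANNGAAA, found on either strand in 3.44% of the windows. Of the 8 SOCS genes, 4 had a window in this table. In the Cish window TTCNNNGAA occurred 2 times, at positions 1 and 12 from the annotated start. In the Socs3 window it occurred 1 time, with its first base 154 bases before the annotated start. That window lies inside the gene as counted here, which runs on the - strand from 117966079 to 117970342. The Socs3 motif is therefore not upstream of the whole counted gene. The Socs1 window held GAAANNGAAA 2 times, overlapping, with first bases 83 and 77 before the start. The Socs4 window held neither motif. The lines below give 100 bases of each window in the direction of transcription, with the motif in capitals. A match of letters is a description and was not set against any binding data.
Cish, chr9:107296589-107296688, + strand: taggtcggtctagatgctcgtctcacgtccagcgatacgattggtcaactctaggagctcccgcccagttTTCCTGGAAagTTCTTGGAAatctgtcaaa
Socs3, chr11:117969467-117969566, - strand: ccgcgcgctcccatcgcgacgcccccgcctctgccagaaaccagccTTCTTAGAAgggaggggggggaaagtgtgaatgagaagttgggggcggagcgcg
Socs1, chr16:10785567-10785666, - strand: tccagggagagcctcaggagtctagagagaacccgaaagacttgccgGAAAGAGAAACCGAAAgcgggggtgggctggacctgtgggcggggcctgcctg

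Cish encodes CIS, which occupies phosphotyrosines on cytokine receptors where STAT5 would dock. The gene lies on the + strand of chromosome 9 from 107296659 to 107302784 (mm10) with 4293 bases of exon in the files' annotation. The libraries of untreated HSCs had 177, 199.5, 140.0 and 108 CPM of Cish, and those of day-6 HSCs 176, 246, 136 and 179.9 CPM. These groups overlapped. In day-10 HSCs Cish ranged over 6 libraries from 44.3 to 74.0 CPM with a median of 54.9. Every day-10 library lay below every untreated and every day-6 library. The mean of 57.7 ± 11.3 CPM at day 10 (SD, n = 6) against 156 ± 40.5 CPM in untreated HSCs (SD, n = 4) was a log2 fold change of -1.43 (SE 0.185, 95% interval -1.82 to -1.04, edgeR adjusted p = 4.07e-05). Against the 184 ± 45.7 CPM of day-6 HSCs (SD, n = 4) it was -1.68 on the log2 scale (SE 0.184, edgeR adjusted p = 3.11e-05). At day 6 the log2 change from untreated HSCs was 0.24, with a 95% interval from -0.18 to 0.67 (edgeR adjusted p = 0.332). The day-10 falls passed the test under all 21 alternative settings run for each, intron reads included (log2 fold changes -1.12 against untreated and -1.59 against day-6 HSCs).

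In culture Cish had 97.7, 89.6, 137 and 169 CPM in the cultured libraries, against 146, 196, 176 and 261 CPM in the uncultured ones. The groups overlapped, and the log2 fold change was -0.63 (SE 0.201, edgeR adjusted p = 0.0138). The call was lost without uncultured library 4 (log2 -0.46, edgeR adjusted p = 0.0577), without cultured library 1 (log2 -0.52, edgeR adjusted p = 0.0547) or without cultured library 2 (log2 -0.49, edgeR adjusted p = 0.0556), and from intron reads the log2 change was -0.09 (edgeR adjusted p = 0.771). CD48+ HPCs had 40.3, 23.6, 32.3 and 29.6 CPM of Cish, against 49.9, 55.9, 34.9 and 64.0 CPM in CD48- HSCs. The highest HPC library stood above the lowest HSC library, and the log2 fold change was -0.69 (SE 0.196, edgeR adjusted p = 0.0237). Here too the call was lost without HPC library 2 or 4 or HSC library 1 or 4, with edgeR adjusted p from 0.0516 to 0.0604 in those fits, and from intron reads (log2 -0.70, edgeR adjusted p = 0.205). Ordered by mean, the levels of Cish ran from uncultured HSCs through day-6, untreated and cultured HSCs to the 3 day-10 groups. The only neighbours whose libraries did not overlap were cultured HSCs and day-10 HSCs, which belong to different experiments. Levels were not tested between experiments.

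**Figure D2:**
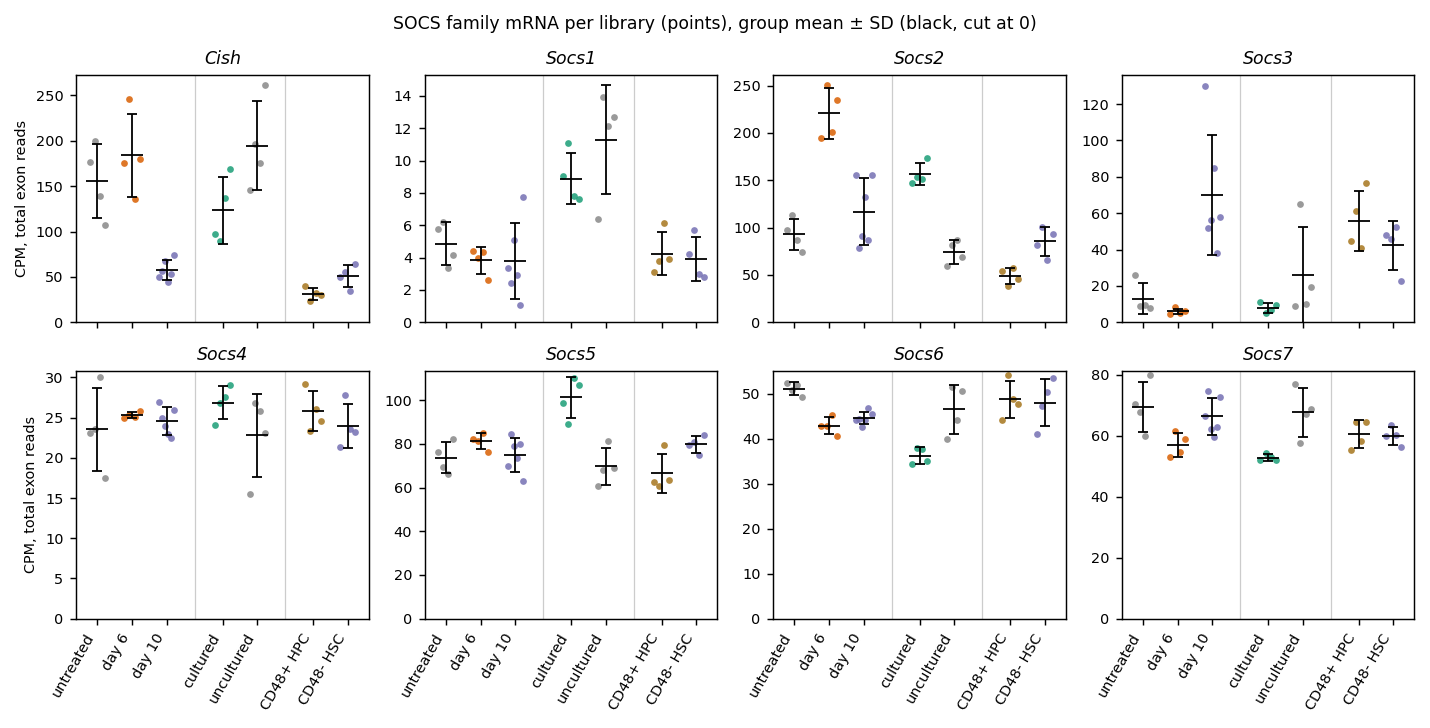
CPM of each SOCS gene in every library (points) across the 7 groups, with group means and SD in black, bars cut at 0 and a linear axis per gene that starts at 0. The 6 day-10 libraries of Cish sit between 44.3 and 74.0 CPM, below all untreated libraries, and the 6 of Socs3 sit between 38.3 and 129.7 CPM, above all untreated libraries.

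Socs2 encodes an inhibitor best known for restraining growth hormone signalling, and in mouse blood stem cells its loss has been tied to greater proliferation under stress. The gene lies on the - strand of chromosome 10 from 95383903 to 95417253 (mm10), with 11833 bases of exon in the files' annotation. It had 195, 251, 201 and 235 CPM in day-6 HSCs, against 97.6, 113, 86.5 and 73.8 CPM in untreated HSCs. The lowest day-6 library was above the highest untreated one. The log2 fold change was 1.25 (SE 0.211, 95% interval 0.80 to 1.70, edgeR adjusted p = 0.000165). From intron reads the call was lost, with a log2 change of 0.62 (edgeR adjusted p = 0.161). In day-10 HSCs Socs2 ranged from 78.8 to 156 CPM with a median of 112, and 0.33 on the log2 scale above untreated HSCs (95% interval -0.08 to 0.74, edgeR adjusted p = 0.188). Against day 6 the day-10 level was lower, with a log2 fold change of -0.92 (SE 0.186, edgeR adjusted p = 0.00215) and no overlap between the groups, a call that was also lost from intron reads (log2 -0.69, edgeR adjusted p = 0.115).

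Cultured HSCs also held more Socs2. The cultured libraries had 147, 154, 152 and 174 CPM, against 59.1, 81.8, 86.6 and 69.4 CPM in the uncultured ones, which gave a log2 fold change of 1.10 (SE 0.112, edgeR adjusted p = 2.34e-06). The groups did not overlap, and the call held under all 16 alternatives run. In CD48+ HPCs Socs2 was lower than in CD48- HSCs, with 54.0, 38.7, 57.0 and 46.2 CPM in the HPC libraries against 81.9, 101, 65.4 and 93.1 CPM in the HSC libraries. The groups did not overlap and the log2 fold change was -0.79 (SE 0.154, edgeR adjusted p = 0.00381), kept under all 17 alternatives. From 67.1 to 83.3% of the exon reads of Socs2 in a library were unique, and the gene overlaps Gm33230 on the other strand, with counting by strand not stated in the sources used here. From unique reads alone the log2 changes were 1.15 for day 6 against untreated, 1.07 for culture and -0.83 for CD48+ HPCs, with edgeR adjusted p of 0.000315, 3.62e-06 and 0.00261. Socs2 was highest in day-6 HSCs and lowest in CD48+ HPCs, and neither group overlapped its neighbour in the order of levels. That order spans different experiments, between which levels were not tested.

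Socs3 encodes the inhibitor that binds gp130 and the granulocyte colony-stimulating factor receptor and blocks the attached JAKs. It lies on the - strand of chromosome 11 from 117966079 to 117970342 (mm10), with 3192 bases of exon. The untreated libraries had 25.9, 8.84, 9.29 and 7.89 CPM and the day-6 libraries 4.70, 8.19, 5.19 and 6.15 CPM. In day-10 HSCs it ranged from 38.3 to 129.7 CPM with a median of 57.1 over 6 libraries. All day-10 libraries stood above all others of that experiment. Day-10 HSCs exceeded untreated HSCs by 2.42 on the log2 scale (SE 0.382, 95% interval 1.61 to 3.23, edgeR adjusted p = 0.000204) and day-6 HSCs by 3.52 (SE 0.415, 95% interval 2.64 to 4.41, edgeR adjusted p = 5.55e-05). Each of these calls was kept in 20 of its 21 alternatives and lost with intron reads, of which the gene had between 0 and 53 per library.

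At day 6 Socs3 was lower than in untreated HSCs by a log2 fold change of -1.10 (SE 0.444, edgeR adjusted p = 0.0484). The groups overlapped, since untreated library 1 had 25.9 CPM and the other untreated libraries had at most 9.29 CPM. Without that library the log2 change was -0.52 (edgeR adjusted p = 0.295), and the call was lost in 11 of 19 alternatives. Untreated library 1 also held the highest level of Junb in its group, with 197 CPM against 72.6 to 107 CPM in the other untreated libraries. Junb is an immediate early gene, quickly induced by handling and by cytokines. Fos and Dusp1, also immediate early genes, were instead highest in untreated library 4, which had the lowest Socs3 of its group. Fos had 1729 CPM there and 1192 CPM in untreated library 1, and Dusp1 had 613 CPM in library 4 and 436 CPM in library 1. In the culture experiment uncultured library 2 had 64.8 CPM of Socs3 and 524 CPM of Junb, and it was also the highest of its group for Fos, at 1764 CPM, and for Dusp1, at 420 CPM. The other uncultured libraries had 8.90, 10.0 and 19.4 CPM of Socs3 and 72.5 to 89.4 CPM of Junb, and the cultured libraries had 11.3, 5.09, 6.57 and 9.39 CPM of Socs3 and 8.81 to 21.1 CPM of Junb. Cultured HSCs thus had less Socs3, with a log2 fold change of -1.64 (SE 0.552, edgeR adjusted p = 0.0186) that became -0.61 (edgeR adjusted p = 0.111) without uncultured library 2. The call was also lost without cultured library 2 (edgeR adjusted p = 0.0575) or cultured library 3 (edgeR adjusted p = 0.0515). In day-10 HSCs, where Socs3 was highest, Junb ran from 69.4 to 115 CPM, no higher than in untreated HSCs. Day-6 HSCs had less Junb, from 9.68 to 22.3 CPM. Fos ran from 77.0 to 214 CPM at day 6 and from 376 to 659 CPM at day 10. Dusp1 ran from 54.2 to 89.55 CPM at day 6 and from 147 to 214 CPM at day 10. These immediate early genes thus stood higher at day 10 than at day 6, as Socs3 did. Neutrophil markers were also lower in cultured HSCs. The 11 of them summed to 10.2 to 15.7 CPM in cultured HSCs, with 5 at 0 in all 4 libraries, against 80.3 to 579 CPM in uncultured HSCs, with Mmp8 at 0. The total of 579 CPM was in uncultured library 1, which had the lowest Socs3 of its group, 8.90 CPM. The 14 macrophage markers summed to 53.3 to 72.2 CPM in cultured HSCs, with 7 at 0, against 62.8 to 81.5 CPM in uncultured HSCs, with Marco at 0. The part of immediate early induction and of neutrophil RNA in these differences was not tested.

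Socs3 did not pass the test between CD48+ HPCs and CD48- HSCs. The HPC libraries had 44.5, 61.3, 40.6 and 76.8 CPM, against 48.2, 46.0, 52.4 and 22.8 CPM in the HSC libraries, a log2 change of 0.40 with a 95% interval from -0.16 to 0.96 (edgeR adjusted p = 0.269). Both day-10 groups of that experiment stood high in the order of levels, next to the day-10 HSCs of the 5-FU experiment. Neutrophils and macrophages also express Socs3, so their markers in the day-10 comparisons are given beside it. In bulk libraries more cells of a type and more RNA per cell cannot be told apart. The summed level of 14 macrophage markers ran from 66.7 to 132 CPM in untreated HSCs, 87.2 to 1340 CPM in day-6 HSCs and 152 to 426 CPM in day-10 HSCs, and from 232 to 1550 CPM in CD48+ HPCs against 101 to 511 CPM in CD48- HSCs. None of these markers was at 0 in all libraries of those 5 groups. In the 5-FU experiment the highest macrophage total, 1340 CPM, was in a day-6 library, and that library had 4.70 CPM of Socs3. Of 12 macrophage markers tested, 5 were higher and 0 lower at day 10 against untreated HSCs (beside 19.9% and 18.1% of all genes). At day 6 against untreated HSCs 11 were higher and 0 lower (25.7% and 25.7%). At day 10 against day 6 0 were higher and 1 lower (14.7% and 15.9%). In CD48+ HPCs, also with 12 tested, 7 were higher and 0 lower (14% and 12.5%). The 11 neutrophil markers summed to 31.4 to 1970 CPM in untreated HSCs, with Ctsg and Mmp8 at 0 in all 4. They summed to 13.4 to 15.0 CPM in day-6 HSCs, with 6 markers at 0, and to 38.1 to 68.4 CPM in day-10 HSCs, with Ctsg, Mmp8 and Retnlg at 0. In CD48+ HPCs their sum was 65.2 to 132 CPM, with Mmp8 and Retnlg at 0. In CD48- HSCs it was 40.5 to 105 CPM, with Ly6g, Mmp8 and Retnlg at 0. Of 3 tested between them, 2 were higher and 0 lower in CD48+ HPCs (14% and 12.5%). Without the libraries richest in such markers, day-6 library 1 and untreated library 3, Socs3 at day 10 exceeded untreated HSCs by 2.29 on the log2 scale (edgeR adjusted p = 0.00188) and day-6 HSCs by 3.43 (edgeR adjusted p = 0.000477). No library of day-10 HSCs was left out in these fits, so the part of other cells in the day-10 level was not tested. All 12 HSC markers were detected in every library of all 7 groups, which does not measure purity. At day 6 against untreated HSCs 0 of them were higher and 6 lower (beside 25.7% and 25.7% of all genes). At day 10 against untreated HSCs 2 were higher and 4 lower (19.9% and 18.1%), and against day 6 3 were higher and 1 lower (14.7% and 15.9%). In culture 2 were higher and 9 lower (33.8% and 33.8%). In CD48+ HPCs 1 was higher and 10 lower (14% and 12.5%).

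Socs1, an inhibitor of JAKs that limits interferon signalling, was the least abundant member, with 9 to 94 exon reads per library and so a wide counting error. It lies on the - strand of chromosome 16 from 10783808 to 10785536 (mm10). Day-10 HSCs ranged from 1.10 to 7.74 CPM with a median of 3.15, and untreated HSCs had 5.74, 6.22, 3.34 and 4.16 CPM. The groups overlapped, and the log2 change was -0.36 with a 95% interval from -1.23 to 0.50 (edgeR adjusted p = 0.506). No other comparison of Socs1 passed either. Cultured HSCs averaged 8.88 ± 1.58 CPM and uncultured HSCs 11.3 ± 3.34 CPM (SD, n = 4 each), while the means of the other 5 groups lay between 3.77 and 4.87 CPM. Uncultured HSCs, with 6.41 to 13.9 CPM, did not overlap untreated HSCs, though both had neither 5-FU nor culture. The level of Socs1 thus differed between experiments, and the cause was not tested. For the other groups the experiment and the group cannot be told apart.

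Socs5, known for restraining interleukin-4 and epidermal growth factor receptor signalling, passed the test in culture and in none of the other 4 comparisons as fitted here. It lies on the + strand of chromosome 17 from 87107295 to 87137647 (mm10) and overlaps Gm30510 on the other strand. The cultured libraries had 98.6, 89.2, 110.3 and 107 CPM, against 60.9, 68.2, 81.2 and 68.8 CPM in the uncultured ones. The groups did not overlap, and the log2 fold change was 0.56 (SE 0.099, edgeR adjusted p = 0.000268), kept under all 16 alternatives. CD48+ HPCs averaged 66.4 ± 8.75 CPM against 79.9 ± 3.88 CPM in CD48- HSCs (SD, n = 4 each), with an edgeR adjusted p of 0.0892. Without CD48+ HPC library 3, which had 79.4 CPM, the log2 change between them was -0.35 (edgeR adjusted p = 0.0237). It also passed with all 30 libraries in 1 fit (log2 -0.27, edgeR adjusted p = 0.0413) and without the marker-rich libraries (log2 -0.38, edgeR adjusted p = 0.0328). Of the reads of Socs5, 57.8 to 73.4% were intron reads, and from intron reads its culture change was 0.96 on the log2 scale (edgeR adjusted p = 6.79e-05).

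Socs4, Socs6 and Socs7 varied least. Socs4, a relative of Socs5 on the + strand of chromosome 14 from 47277143 to 47291591 (mm10), passed in no comparison, and its group means lay between 22.8 and 26.9 CPM. Socs7, on the + strand of chromosome 11 from 97362296 to 97398542 (mm10), has been linked to insulin signalling. It had 52.0, 54.3, 52.9 and 52.1 CPM in cultured HSCs, against 77.1, 57.5, 67.1 and 68.8 CPM in uncultured HSCs, with no overlap and a log2 fold change of -0.33 (SE 0.094, edgeR adjusted p = 0.00737). From intron reads that change was -0.003 (edgeR adjusted p = 0.991), so the call was lost. At day 6 it averaged 57.0 ± 3.90 CPM against 69.5 ± 8.21 CPM in untreated HSCs (SD, n = 4 each), a log2 fold change of -0.29 (edgeR adjusted p = 0.0265). Leaving out untreated library 4, day-6 library 1 or day-6 library 3 ended that call (edgeR adjusted p = 0.0933, 0.0693 and 0.0656), and in all it was lost in 6 of 19 alternatives, intron reads included (log2 0.02, edgeR adjusted p = 0.95).

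Socs6, which binds the stem cell factor receptor Kit, lies on chromosome 18 and had 62.5 to 77.6% unique reads. It had 42.9, 42.8, 45.4 and 40.7 CPM in day-6 HSCs, against 52.4, 50.8, 52.0 and 49.3 CPM in untreated HSCs. The groups did not overlap, and the fall was small, -0.25 on the log2 scale (SE 0.073, edgeR adjusted p = 0.0098). The call was lost with no filter on low counts (edgeR adjusted p = 0.0541), without day-6 library 1 and day-10 libraries 4 and 6 (edgeR adjusted p = 0.0757) and from intron reads (log2 -0.04, edgeR adjusted p = 0.879). In day-10 HSCs it averaged 44.6 ± 1.42 CPM (SD, n = 6), a log2 fold change of -0.20 from untreated HSCs (edgeR adjusted p = 0.0296) that was lost in 12 of 21 alternatives. Leaving out any of 6 single libraries, untreated 1, 2 or 3 or day-10 1, 3 or 4, gave edgeR adjusted p from 0.0509 to 0.0634. Cultured HSCs had 34.3, 38.0, 37.7 and 35.1 CPM against 39.9, 51.6, 44.2 and 50.5 CPM in uncultured HSCs, a log2 fold change of -0.34 (SE 0.106, edgeR adjusted p = 0.0133) with no overlap. That call too was lost from intron reads (log2 -0.01, edgeR adjusted p = 0.968).

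Counted over the family, 1 member was higher and 3 were lower at day 6 against untreated HSCs, where 25.7% of the 12886 genes tested were called higher and 25.7% lower. At day 10 against untreated HSCs 1 member was higher and 2 were lower, beside 19.9% and 18.1% of all genes tested. Day 10 against day 6 also gave 1 higher and 2 lower, beside 14.7% and 15.9%. Culture gave 2 higher and 4 lower, beside 33.8% and 33.8% of 12386 genes. CD48+ HPCs against CD48- HSCs gave 0 higher and 2 lower, beside 14% and 12.5% of 12719 genes. With 8 members these counts lie near the background shares and say little about the family as a whole. The median log2 change of the members was between -0.07 and 0.03 in 4 of the 5 comparisons and -0.33 in culture, where the median over all genes tested was -0.01. The comparisons with untreated HSCs share those libraries, and those with day 6 share the day-6 libraries.

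**Figure D3:**
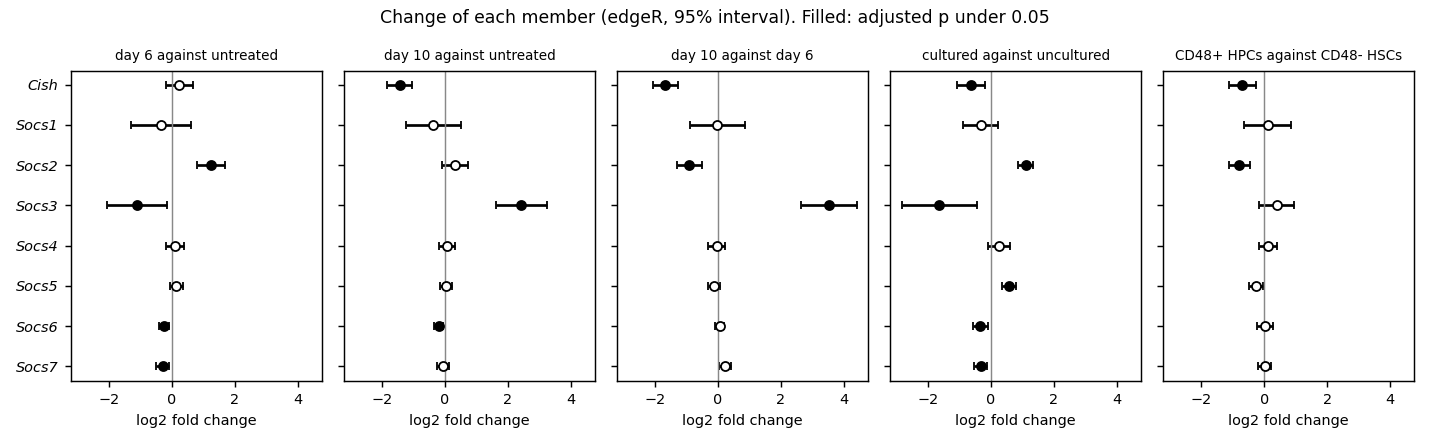
Log2 fold change of each SOCS gene in the 5 comparisons with its 95% interval from edgeR, filled points marking an adjusted p under 0.05. Positive values are higher in the group named at the start of the panel title. Socs3 spans the widest range, from -1.64 in culture to 3.52 at day 10 against day 6.

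Culture and 5-FU were set against each other by testing the culture change minus the day-6 change of each gene over all 30 libraries. Socs2 was higher in both settings, and its changes differed by -0.18 on the log2 scale with a 95% interval from -0.72 to 0.37 (edgeR adjusted p = 0.71). Cish differed by -0.90 (SE 0.318, 95% interval -1.55 to -0.25, edgeR adjusted p = 0.0541) and Socs5 by 0.39 (SE 0.142, 95% interval 0.10 to 0.68, edgeR adjusted p = 0.0588). Of the 8 members 0 passed with edgeR, beside 6.36% of 13468 genes called higher and 8.77% lower. These 2, Cish and Socs5, had an unadjusted p under 0.05, and both passed with DESeq2 at adjusted p of 0.0303 and 0.0478.

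Among 8543 other genes with a mean log2 CPM of at least 4, those most alike in pattern to each member were named by Pearson's r of log2 CPM over the 30 libraries. The libraries share groups, so r mostly reflects the group means, and r within groups is given beside each r. For Cish they were Kcnk5 (r = 0.902, within groups 0.206), Ccnd2 (r = 0.897, within groups 0.522) and Ikzf4 (r = 0.89, within groups 0.484). Ccnd2, a cyclin of the G1 phase, averaged 415 ± 106 CPM at day 10 against 921 ± 72.1 CPM in untreated HSCs (SD, n = 6 and 4). Socs2 was most like Xbp1 (r = 0.903, within groups 0.652), a transcription factor of the unfolded protein response, then Myh10 (r = 0.873, within groups 0.378) and Lrrc42 (r = 0.854, within groups 0.729). Socs3 was most like Arid5a (r = 0.904, within groups 0.669), which stabilises interleukin-6 mRNA, then Bcl3 (r = 0.87, within groups 0.507) and Samsn1 (r = 0.865, within groups 0.373). For the other members the highest r was 0.764 for Socs1 with Fam53a (within groups 0.355), 0.776 for Socs4 with Helq (within groups 0.843), 0.814 for Socs5 with Dusp3 (within groups 0.375), 0.824 for Socs6 with Bod1l (within groups 0.333) and 0.804 for Socs7 with Itpkc (within groups 0.489). Between members, Cish and Socs3 had r = -0.713 over the 30 libraries and 0.075 within groups, so their opposition lay between groups and not between libraries of a group. Socs2 and Cish had r = 0.534, and 0.456 within groups.

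**Figure D4:**
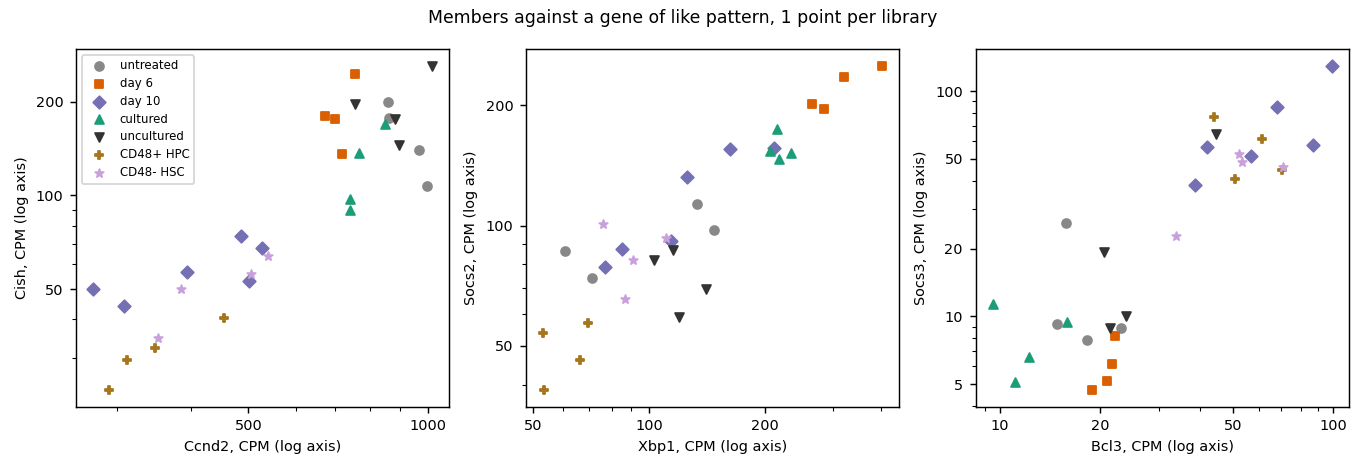
CPM of Cish, Socs2 and Socs3 against Ccnd2, Xbp1 and Bcl3, 1 point per library, on log axes, with a marker for each of the 7 groups. The points rise together in each panel, with r of 0.897, 0.903 and 0.87.

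The pathway around the SOCS genes was counted over lists chosen with earlier results of these data known. Their counts are to be read against the shares of all genes called higher and lower, which were 25.7% and 25.7% at day 6 against untreated HSCs, 19.9% and 18.1% at day 10 against untreated HSCs, 14.7% and 15.9% at day 10 against day 6, 33.8% and 33.8% in culture, and 14% and 12.5% in CD48+ HPCs. Of 11 JAK and STAT genes, 0 were higher and 8 lower at day 6 against untreated HSCs, and 9 were higher and 0 lower at day 10 against day 6. Their median log2 change was -0.46 at day 6 against untreated HSCs, beside -0.04 over all genes tested. Stat5b, which acts upstream of Cish and Socs2, had 222 ± 12.7 CPM at day 6 against 317 ± 12.3 CPM in untreated HSCs (log2 fold change -0.51, edgeR adjusted p = 7.72e-06), and so was lower where Socs2 was higher. Stat3, upstream of Socs3, averaged 508 ± 35.3 CPM at day 10 against 357 ± 40.2 CPM in untreated HSCs (log2 fold change 0.51, edgeR adjusted p = 0.000128) and 260 ± 14.5 CPM at day 6. In culture 0 of the 11 were higher and 9 lower, among them Stat3 (log2 fold change -0.92), Stat5b (-0.73) and Jak3 (-0.96). In CD48+ HPCs 0 were higher and 4 lower than in CD48- HSCs.

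Receptor genes were called in both directions in each comparison, as were all genes tested. Of the cytokine receptors tested, 5 of 27 (beside 25.7% of all genes) were higher and 11 lower (25.7%) at day 6 against untreated HSCs. At day 10 against untreated HSCs 12 were higher (19.9%) and 7 lower (18.1%), and at day 10 against day 6 15 were higher (14.7%) and 3 lower (15.9%). In culture 6 of 26 were higher (33.8%) and 17 lower (33.8%), and in CD48+ HPCs 4 of 27 were higher (14%) and 9 lower (12.5%). Csf3r, a receptor whose signal Socs3 restrains, had 339 ± 67.2 CPM at day 10 against 116 ± 14.7 CPM at day 6 (log2 fold change 1.55, edgeR adjusted p = 2.4e-05), and in culture its log2 fold change was -2.94. Socs3 was called in the same direction in those comparisons, its culture call resting on single libraries as given above. At day 10 against untreated HSCs Csf3r was not called (log2 0.33, edgeR adjusted p = 0.102) where Socs3 was higher, and in CD48+ HPCs Csf3r was called higher (log2 0.61, edgeR adjusted p = 0.0118) where Socs3 was not called. At day 6 against untreated HSCs Csf3r was lower (log2 -1.22, edgeR adjusted p = 2.88e-05), and the fall of Socs3 was lost in 11 of 19 alternatives.

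Calls among genes that the SOCS proteins work with were as follows, each comparison being with its controls. Of 7 genes listed for the ubiquitin ligase that the SOCS box recruits, 6 were higher and 1 lower at day 6 (beside 25.7% and 25.7% of all genes). At day 10 4 were higher and 0 lower (19.9% and 18.1%), and in culture 5 were higher and 0 lower (33.8% and 33.8%). Rbx1, a RING protein gene on that list, had 42.2 ± 2.15 CPM at day 6 against 25.6 ± 1.59 CPM in untreated HSCs (log2 fold change 0.72, edgeR adjusted p = 2.6e-05). Rnf7, also a RING protein gene, had 64.8 ± 5.38 against 43.9 ± 3.16 CPM (log2 fold change 0.56, edgeR adjusted p = 6.17e-05). Tceb2, the elongin B gene, had 131 ± 3.93 CPM in cultured against 51.2 ± 6.84 CPM in uncultured HSCs (log2 fold change 1.38, edgeR adjusted p = 7.59e-08). Of 18 other inhibitors of the pathway, 3 were higher and 5 lower at day 6 (25.7% and 25.7%), counts that lie near those shares. At day 10 7 were higher and 2 lower (19.9% and 18.1%), and in culture 2 were higher and 8 lower (33.8% and 33.8%). Cblb, a ubiquitin ligase that limits cytokine receptors, was among those that rose at day 10 (log2 fold change 0.79) and fell in culture (log2 fold change -1.04).

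Other targets of the STATs did not all follow the SOCS gene of the same STAT. Of 12 STAT5 targets tested, 4 were higher and 3 lower at day 6 (beside 25.7% and 25.7% of all genes), 5 higher and 2 lower at day 10 (19.9% and 18.1%) and 5 higher and 4 lower in culture (33.8% and 33.8%). The counts at day 6 and in culture lie near those shares. Bcl6, which STAT5 represses, was 0.979 ± 0.568 CPM at day 6 against 14 ± 3.16 CPM in untreated HSCs (log2 fold change -3.85), and 21.5 ± 4.96 CPM at day 10. It was thus low in the group where Socs2 was high. Of 11 STAT3 targets, 5 were higher and 2 lower at day 10 against untreated HSCs, and Bcl3 was among the higher ones with 65.3 ± 24.4 CPM against 18.0 ± 3.68 CPM (log2 fold change 1.86, edgeR adjusted p = 5.53e-05). Of 17 interferon targets, 14 were higher and 0 lower at day 10 against untreated HSCs, while Socs1, an interferon target too, did not pass. Irf7 ranged at day 10 from 44.8 to 382 CPM over the 6 libraries and Cxcl10 from 5.18 to 501 CPM. Day-10 library 6 was the highest for both genes and for Socs1, at 7.74 CPM. The day-10 CD48- HSCs of the separate experiment had only 39.8 to 61.3 CPM of Irf7 and 0.475 to 16.3 CPM of Cxcl10.

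**Figure D5:**
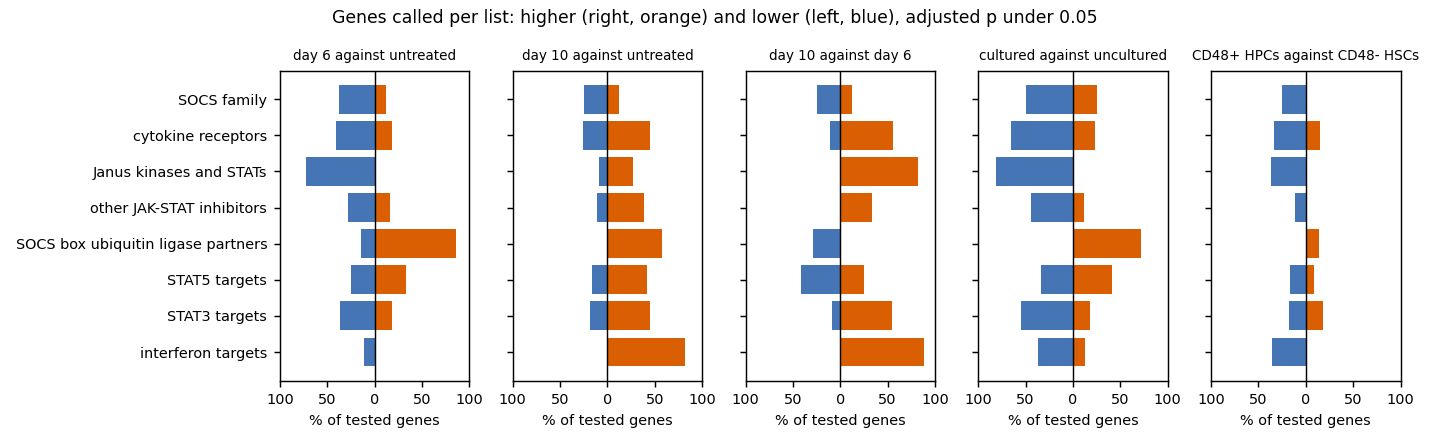
Share of tested genes in each of 8 lists (percent, linear axis) called higher (orange, right) or lower (blue, left) at an edgeR adjusted p under 0.05 in the 5 comparisons. For JAK and STAT genes the bars lie on the lower side at day 6 against untreated HSCs (8 of 11) and on the higher side at day 10 against day 6 (9 of 11), and for interferon targets on the higher side at day 10 against untreated HSCs (14 of 17).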

How the data were processed

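The deposited files hold 3 kinds of count per gene, per the file headers, 1 file for each library of 100 cells: all reads on exons, those on exons that map uniquely, and those on introns. Reads were mapped to mm10 per the submitters' processing notes, and the aligner and counter are not given in these sources. Libraries held 5208722 to 12243208 exon reads. Total exon reads were summed per gene identifier (48737 entries, 46113 genes). Each experiment was fitted over all genes with edgeR 4.0.16 in R 4.3.3 (filterByExpr, TMM, quasi-likelihood F test, group means only), and calls are a Benjamini-Hochberg adjusted p under 0.05. CPM use TMM-scaled library sizes over all 30 libraries, while fold changes come from the fit of 1 experiment. SE is the log2 fold change divided by the square root of F. Alternatives were RLE size factors, no filter, DESeq2 1.42.0, unique or intron reads, entries as deposited, the replicate number as a block, other sets of libraries in the fit and each library left out. The fits were tested on simulated data. Tables and motifs were made with pandas 2.3.3 in Python 3.11.15 and figures with matplotlib 3.10.9. Promoter sequences are from RefSeq on GRCm38.p6.

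The members and lists were chosen with earlier results of these data known. Named besides the members are, by rule, up to 3 called genes with the smallest p of a list and comparison, and the 3 genes most alike to a member (log2 CPM with a prior count of 2). Junb, Fos and Dusp1 in single libraries were named after their values were seen, and a few results withheld for evaluation are not reported here. No library was counted as a copy of another, since chi-square per degree of freedom was 2.46 to 45.7 in the 51 replicate pairs. Reads carry no molecular identifiers, so low counts carry at least counting error.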

Additional observations from a re-analysis of the deposited data

Results flagged for a closer look

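Each of the 8 members in each of the 7 groups was examined for a library far from the others, 56 sets of 4 or 6 libraries, of which chance flags about 1 in 20. There were 2 such sets. Socs3 in untreated library 1 stood at 25.9 CPM, with the next library at 9.29 CPM, a gap of 0.922 of the range against a critical value of 0.829. Socs5 in CD48+ HPC library 3 stood at 79.4 CPM with the next at 63.5 CPM, a gap of 0.844 of the range. That HPC library also held the highest macrophage marker total of its group, 1550 CPM against 670.0 CPM in the next, and the part of other cells in the value was not tested.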

How the results depend on the processing

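Of 18 called changes of single members under 331 alternatives, 280 kept their call, 50 lost it, 23 of these with 1 library left out, and 1 turned: Socs7 at day 6 was 0.02 (0.023) on the log2 scale from intron reads. The counts of members called moved as follows. At day 6 it was 4 against untreated HSCs, but 1 with no filter on low counts, 1 without day-6 library 1 and day-10 libraries 4 and 6, 0 from intron reads, and 2 to 4 when each library was left out. Intron reads gave 1 member at day 10 against untreated HSCs, 1 against day 6, 3 in culture, 1 for CD48+ HPCs and 2 for the difference between culture and day 6. That difference was called in 0 members with edgeR, in 2 with DESeq2, in 1 without marker-rich libraries (an alternative chosen after seeing the data), in 0 to 1 with each library left out, and in 1 with the replicate block. For CD48+ HPCs leaving out each library gave 1 to 3 members. The fit with the replicate number as a replicate block took the day-10 fall of Socs6 to an edgeR adjusted p of 0.0836 and the culture fall of Socs3 to 0.0612, and Cish in the difference between culture and day 6 to 0.0289; it changed no other call. Same-numbered libraries showed no shared deviation (r of deviations -0.179 to 0.112 in 20 pairs). Whether the numbers mark a shared mouse or batch is not stated, and these r values cannot exclude it.

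Among 30 changes that did not pass, 19 of 606 alternatives passed and 52 turned in sign. From intron reads the log2 values that turned were -0.018 for Socs4 at day 6, -0.063 for Socs2, -0.304 for Socs4 and 0.224 for Socs7 at day 10 against untreated HSCs, -0.298 for Socs6 at day 10 against day 6, -0.522 for Socs4 and -0.243 for Socs6 in CD48+ HPCs, and 0.562 for Socs2, 0.063 for Socs6 and 0.01 for Socs7 in the difference between culture and day 6. From unique reads Socs6 was -0.001 at day 10 against day 6 and -0.002 in CD48+ HPCs. Without marker-rich libraries Socs5 was -0.023 at day 10 against untreated HSCs, Socs1 was 0.054 at day 10 against day 6 and -0.238 in CD48+ HPCs, and in the difference Socs1 was 0.205 and Socs4 -0.013. In that difference Socs1 was also 0.018 with no filter, 0.057 with the replicate block and 0.051 without day-6 library 1 and day-10 libraries 4 and 6. With each library left out the ranges were -0.02 to 0.238 for Socs4 at day 6; -0.06 to 0.198 for Socs4, -0.023 to 0.081 for Socs5 and -0.132 to 0.004 for Socs7 at day 10 against untreated HSCs; -0.398 to 0.144 for Socs1 at day 10 against day 6; -0.124 to 0.351 for Socs1, -0.035 to 0.082 for Socs6 and -0.006 to 0.066 for Socs7 in CD48+ HPCs. In the difference they were -0.18 to 0.139 for Socs1, -1.165 to 0.438 for Socs3, -0.002 to 0.228 for Socs4 and -0.163 to 0.017 for Socs7. The cause was not tested. Group means in CPM moved by more than 1 SD in 31 of 112 alternatives, all of them from unique reads, whose library totals are smaller. Depth limits Socs1 most.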
